A study of Mus musculus with 9 samples.

Results

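The 8 genes Dmd, Utrn, Dtna, Sgcd, Sgca, Lama2, Itga7 and Itgb1 encode the dystrophin complex and the laminin receptors that join a muscle cell's cytoskeleton to its basement membrane. They were taken by name from the 37840 genes of the deposited count tables, and all 8 were found. Nuclear RNA of heart ventricles from C57BL6/J mouse pups had been counted by single-nucleus Drop-seq, in which a droplet joins 1 nucleus with 1 barcoded bead and each captured molecule carries a unique molecular identifier (UMI). The 9 libraries formed 3 groups of 3: controls of postnatal day 6 (control P6), controls of days 9 to 10 (control P10) and knockouts of that same stage (KO P10). Every control was ERRalphaHet/ERRgammaWT, so all controls lacked 1 copy of the ERRα gene (Esrra), and the knockouts were ERRalphaKO/ERRgammaKO. Both receptors, ERRα and ERRγ, bind DNA and activate genes of mitochondrial energy metabolism as the heart matures. The labels name no Cre driver, give sex as not determined, and say that ventricles were processed fresh or frozen without saying which, and do not state which mouse or mice each library was made from, so p-values measure only the spread between these libraries, which may be technical.

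Dystrophin (Dmd) is a long rod protein that binds actin at one end and the membrane protein dystroglycan at the other. Sarcoglycans stabilise this complex in the membrane, dystrobrevin binds dystrophin on the inner side, and laminin α2, the long chain of muscle laminin, holds dystroglycan from outside. Integrin α7β1 is a second laminin receptor of muscle, and utrophin is a close relative of dystrophin that can take its place in part. Loss of dystrophin, of a sarcoglycan or of laminin α2 causes muscular dystrophy, in several forms with disease of the heart.

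The members differ greatly in length, which matters in nuclear RNA because unspliced transcripts are counted too. Their gene spans in GENCODE vM21 (GRCm38, the assembly that mm10 denotes) ran from 13.5 kb for Sgca (chromosome 11, 94962791 to 94976327, minus strand) to 2257 kb for Dmd (chromosome X, 82948870 to 85206141, plus strand). Sgcd covers 1093 kb (chromosome 11, 46896253 to 47988969, minus strand), Lama2 639.7 kb (chromosome 10, 26980036 to 27619758, minus strand) and Utrn 487 kb (chromosome 10, 12382188 to 12869365, minus strand). Dtna covers 245 kb, Itgb1 47.5 kb (chromosome 8, 128685654 to 128733200, plus strand) and Itga7 24.5 kb (chromosome 10, 128933818 to 128958282, plus strand). Over all barcodes the files held 147412 UMIs of Dmd, 30004 of Lama2, 20791 of Itgb1, 20170 of Sgcd, 9724 of Utrn, 5929 of Dtna, 2309 of Itga7 and 1578 of Sgca. Whether the counting used strand is not given in the sources used here, but genes that overlap a member in the annotation held, on either strand alone, at most 1.17% of that member's own UMIs, the share for Lama2.

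The start regions of 4 members are shown: those of the 3 longest, Dmd, Sgcd and Lama2, and that of Itgb1, the member called in the knockout. Each is the 250 bases before a transcription start in RefSeq (GRCm38.p6), read 5′ to 3′ on the gene's strand, with every CpG in capitals. They lie at chrX:82948620-82948869 for Dmd, chr11:47379326-47379575 for Sgcd, chr10:27616943-27617192 for Lama2 and chr8:128685404-128685653 for Itgb1.
Dmd: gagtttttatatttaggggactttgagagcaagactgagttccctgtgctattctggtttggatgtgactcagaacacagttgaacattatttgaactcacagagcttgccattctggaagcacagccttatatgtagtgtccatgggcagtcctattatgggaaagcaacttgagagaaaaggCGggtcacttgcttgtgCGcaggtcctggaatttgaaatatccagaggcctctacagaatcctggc
Sgcd: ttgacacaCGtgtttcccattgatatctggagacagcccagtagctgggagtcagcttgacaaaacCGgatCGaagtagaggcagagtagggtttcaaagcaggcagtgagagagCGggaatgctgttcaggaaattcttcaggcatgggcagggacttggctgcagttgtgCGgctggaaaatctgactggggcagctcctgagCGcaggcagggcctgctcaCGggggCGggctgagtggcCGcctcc
Lama2: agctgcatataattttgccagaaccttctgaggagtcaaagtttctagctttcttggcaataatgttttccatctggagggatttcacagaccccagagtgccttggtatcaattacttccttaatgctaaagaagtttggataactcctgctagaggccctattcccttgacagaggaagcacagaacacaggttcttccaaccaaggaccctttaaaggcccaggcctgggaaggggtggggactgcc
Itgb1: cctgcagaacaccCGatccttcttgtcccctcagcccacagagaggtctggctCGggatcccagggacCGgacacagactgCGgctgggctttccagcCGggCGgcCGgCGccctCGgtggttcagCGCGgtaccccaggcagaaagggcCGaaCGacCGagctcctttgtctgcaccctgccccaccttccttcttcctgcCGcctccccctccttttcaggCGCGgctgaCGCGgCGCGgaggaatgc
The Itgb1 sequence holds 21 CpG and 68% G or C, the Sgcd sequence 9 and 58%, the Dmd sequence 2 and 45.2%, and the Lama2 sequence no CpG and 47.2%. Over all 32851 windows of the table the median was 6 CpG and 52.4% G or C. RefSeq windows matched 6 of the 8 members, with 2 starts for Dmd, and none matched Dtna or Itga7. The Sgcd, Lama2 and Utrn windows start inside the longer GENCODE spans. The response element of the deleted receptors was searched on both strands, from 250 bases before to 50 bases after the start, as TCAAGGTCA and as its core AAGGTCA, which the longer motif contains. The core was found in 4.72% of all windows and the longer motif in 0.423%. The 7 windows of the members held 0 of either, which says only that these letters are not in these windows.

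Of 39930459 UMIs (2608067 to 5769630 per library), 25311 nuclei with at least 500 UMIs outside mitochondrially encoded genes were used, 1788 to 3682 per library. Clusters carrying the markers of a cell type are called by its name with "-like". Every library held at least 50 nuclei of 4 classes: 10118 nuclei were cardiomyocyte-like, 4635 fibroblast-like, 1847 endothelial-like and another 1324 endocardial-like. All markers of the last 3 classes were higher in their class than in the other nuclei, and 9 of the 12 cardiomyocyte markers were. Libraries 1 and 2 of KO P10 shared 465 barcodes, of which the 464 with enough UMIs were left out of library 2, and KO P10 library 2 had 687 of the 858 nuclei of cardiomyocyte-like cluster 6. Droplets poor in Malat1, a nuclear RNA, stayed unnamed, and they made up 8.95% to 13.4% of nuclei in control P6, 18.2% to 30.5% in control P10 and 27.0% to 45.1% in KO P10, with the highest share in KO P10 library 1. Cluster 11, with 659 cycling nuclei and Dmd at 5535 CPM, was not poor in Malat1 but also stayed unnamed. KO P10 library 2 held 0 of its nuclei and the other libraries 34 to 169. An alternative added this cluster to the cardiomyocyte-like class. Mitochondrially encoded genes took 40.8% of all UMIs in control P10 library 1 and 0.888% to 17.8% in the other libraries. The 3 control P6 libraries, control P10 library 1 and KO P10 library 1 were rich in Xist and the other 4 in Y-linked RNA, so at P6 sex cannot be told apart from stage. Esrra in cardiomyocyte-like nuclei was 73.5 to 104 CPM (the gene's counts scaled to 1e6 UMIs of the class, with TMM factors) in control P10 and 8.27 to 26.7 CPM in KO P10, and Esrrg was 1346 to 1971 and 676 to 816 CPM, both below every control at P10. Which part of each gene was deleted is not given in the sources used here.

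Among the 4 classes, Dmd, Dtna and Sgcd were highest in cardiomyocyte-like nuclei, Lama2 in fibroblast-like nuclei, Utrn in endothelial-like nuclei, with an overlap, and Itgb1 in the 3 classes other than cardiomyocytes. Classes are clusters of the same data, so these are levels with no test, and TMM factors were set within each class. Mean Sgca was also highest in cardiomyocyte-like nuclei in both control groups, but in KO P10 it was 37.7 ± 8.60 CPM there and 54.9 ± 41.8 CPM in endothelial-like nuclei, from 19 UMIs in the latter. At control P10, Dmd was 11185 ± 3495 CPM (SD, n = 3) in cardiomyocyte-like nuclei against 4254 ± 1957 in endothelial-like, 2369 ± 947 in endocardial-like and 1703 ± 445 in fibroblast-like nuclei. The cardiomyocyte-like range lay above the other 3, which overlapped each other in that order. On plain CPM, cardiomyocyte-like nuclei held 6.05 to 11.3 times the fibroblast-like level of Dmd in the same library, 2.60 to 6.89 times that of Dtna and 2.39 to 4.6 times that of Sgcd, each in 9 of 9 libraries. Lama2 went the other way, with 1.29 to 3.07 times as much in fibroblast-like as in cardiomyocyte-like nuclei in 9 of 9 libraries. Itgb1 was 1.25 to 3.53 times as high in fibroblast-like and 1.49 to 5.12 times as high in endothelial-like as in cardiomyocyte-like nuclei, again in 9 of 9.

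**Figure D1:**
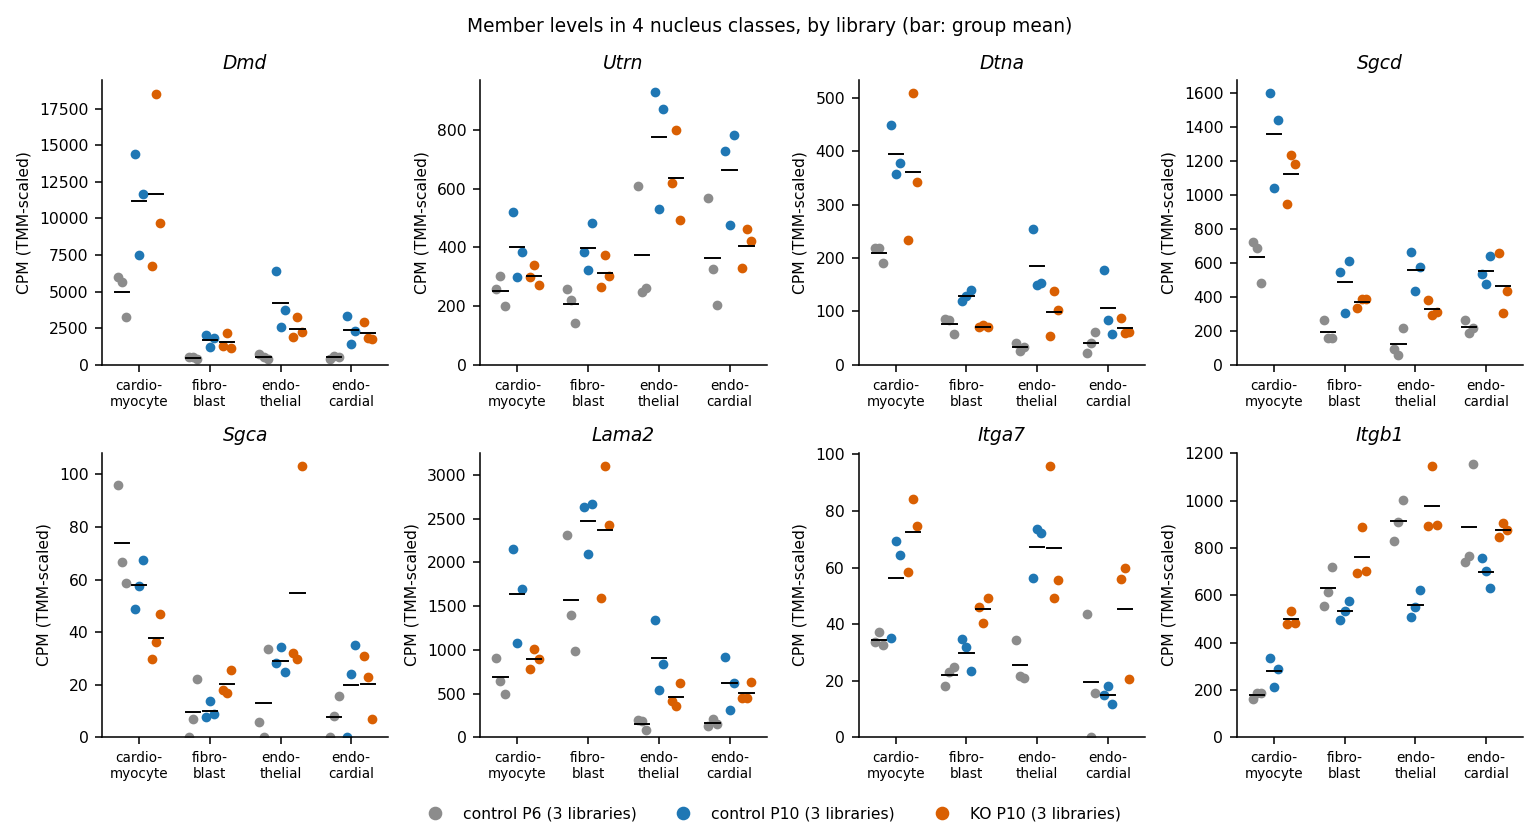
Level of each of the 8 genes (CPM, TMM-scaled within a class) in the 4 classes, with 1 point per library, colours for the 3 groups and a bar at each group mean. Dmd, Dtna and Sgcd stand highest in cardiomyocyte-like nuclei, Lama2 in fibroblast-like nuclei, and the 3 KO P10 points of Itgb1 lie above the 3 control P10 points in every class.

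Levels of different genes were compared per kb of gene span, because intronic reads are counted, and on that scale the order within cardiomyocyte-like nuclei changed. By CPM alone Dmd ranked 1, Itgb1 6 and Sgca 7 among the members at control P10. Division by span lifts short genes, and whether counts grow in proportion to span was not tested. At control P10, Itgb1 came first with 5.85 ± 1.31 CPM per kb (SD, n = 3), followed by Dmd with 4.95 ± 1.55 and Sgca with 4.28 ± 0.682. Those 3 were within their spread of each other. Lama2 (2.57 ± 0.850), Itga7 (2.30 ± 0.756), Dtna (1.61 ± 0.199), Sgcd (1.24 ± 0.262) and Utrn (0.824 ± 0.226) followed. The partners of the complex were in the same range, with 6.76 ± 0.286 CPM per kb for Dag1 (dystroglycan) and 7.52 ± 1.99 for Sgcb (β-sarcoglycan). Nos1, the nitric oxide synthase that syntrophin holds at the muscle membrane, had 10 UMIs in the 3 control P10 libraries together. In fibroblast-like nuclei Itgb1 also led, with 11.3 ± 0.821 CPM per kb, and Lama2 followed with 3.86 ± 0.506. Lamb1 and Lamc1, the genes of the β1 and γ1 chains that join α2 in laminin, were at 10.6 ± 1.18 and 7.81 ± 0.738 CPM per kb there, against 2.29 ± 0.551 and 1.40 ± 0.350 in cardiomyocyte-like nuclei. Lama4, the laminin α chain of vessels, was at 6.19 ± 1.36 in endocardial-like and 4.61 ± 0.737 in endothelial-like nuclei and at 1.55 ± 0.154 in cardiomyocyte-like nuclei.

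The first comparison asked how the members changed in controls from P6 to P10, with edgeR's quasi-likelihood test over all genes of a class and Benjamini-Hochberg adjusted p-values. In cardiomyocyte-like nuclei 3 of the 8 members passed the threshold of 0.05, all upward (Dtna, Sgcd and Lama2), where 17.2% of the 11258 genes tested passed in either direction. In endothelial-like nuclei 6 of 7 tested members rose, all but Itgb1, against 23.9% of genes. In fibroblast-like nuclei 4 of 7 rose (Dmd, Utrn, Dtna and Sgcd) against 14.7%, and in endocardial-like nuclei 3 of 6 rose (Dmd, Sgcd and Lama2) against 8.63%. No member fell past the threshold in any class. Long genes were called upward more often than genes at large. Of genes spanning 400 kb and over, as Dmd, Utrn, Sgcd and Lama2 do, 24.6% rose past the threshold in cardiomyocyte-like nuclei. That share was 38.3% in fibroblast-like, 57.5% in endothelial-like and 33.7% in endocardial-like nuclei. When the Malat1-poor clusters were kept, the 3 cardiomyocyte calls were lost (adjusted p of 0.114 for Dtna, 0.0621 for Sgcd and 0.0598 for Lama2). The median log2 fold change of the members tested was 0.82 in cardiomyocyte-like, 0.78 in fibroblast-like, 2.16 in endothelial-like and 1.27 in endocardial-like nuclei, beside -0.03, -0.03, 0.00 and 0.01 over all genes tested. Sgca had too few counts to be tested outside cardiomyocyte-like nuclei, and Itga7 too few in endocardial-like nuclei.

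The second comparison asked how the knockouts differed from controls at P10, and it shares its control P10 libraries with the first. In cardiomyocyte-like nuclei 1 of 8 members passed, Itgb1, which rose, where 11.8% of genes passed. Fibroblast-like nuclei had 0 of 7 members past the threshold where 3.63% of genes passed, endothelial-like nuclei 0 of 7 where 2.03% did, and endocardial-like nuclei 0 of 6 where 1.29% did, and DESeq2 called none there either. At an unadjusted p under 0.05 the counts were 3 of 8 in cardiomyocyte-like nuclei, 1 of 7 in fibroblast-like, 5 of 7 in endothelial-like and 1 of 6 in endocardial-like nuclei. Over all genes tested, 1497 rose and 1516 fell at that level among 11258 in cardiomyocyte-like nuclei, and 752 and 626 among 8606 in fibroblast-like. The counts were 511 and 410 among 6409 in endothelial-like and 254 and 237 among 4413 in endocardial-like nuclei. The median log2 fold change of the members tested was -0.20, -0.15, -0.74 and -0.23 in these 4 classes, while the medians over all genes were at most 0.02 in size. Genes of 400 kb and over, as Dmd, Utrn, Sgcd and Lama2 are, had medians of -0.76, -0.54, -0.50 and -0.30 in the same order of classes. Those of 10 to 50 kb, as Sgca, Itga7 and Itgb1 are, had medians of 0.10, 0.06, 0.08 and 0.07.

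**Figure D2:**
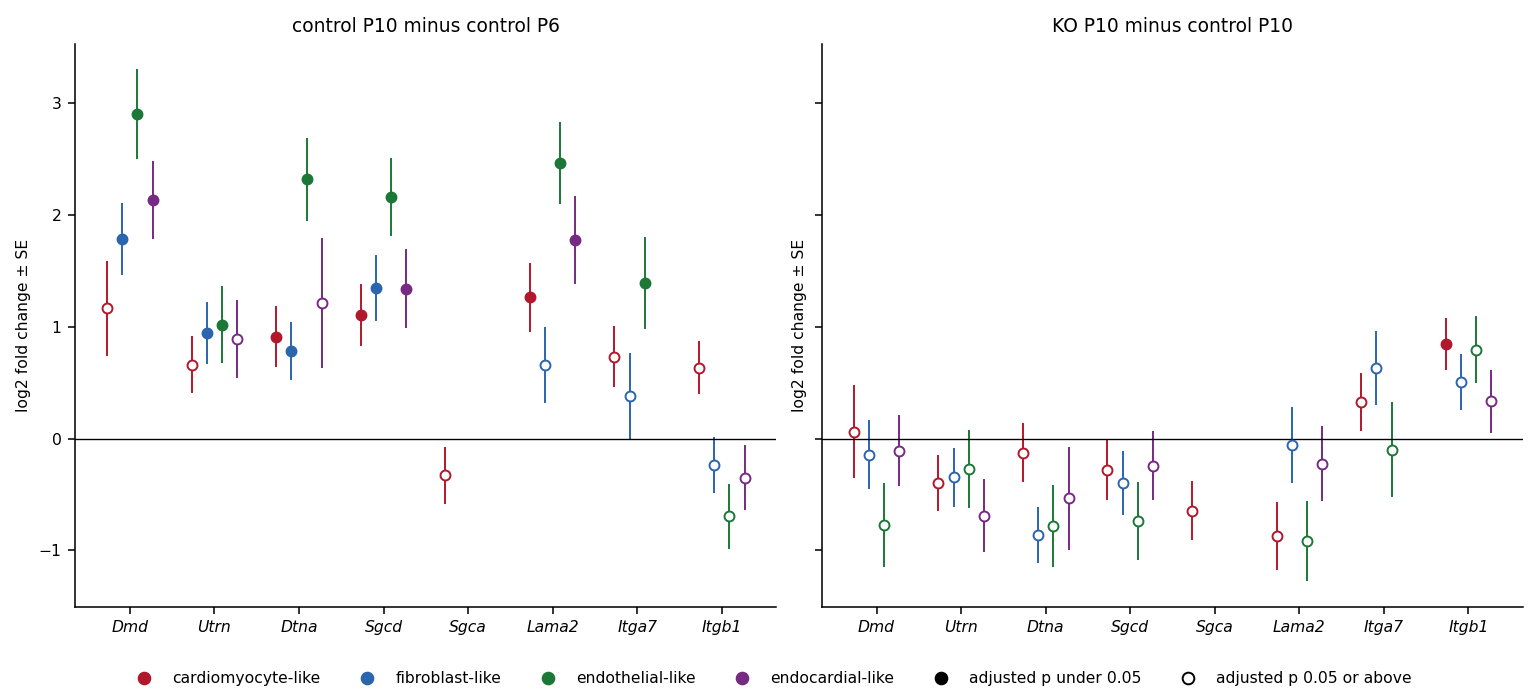
Log2 fold change with its standard error (edgeR) for each of the 8 genes in the 4 classes, for control P10 minus control P6 (left) and KO P10 minus control P10 (right), with filled points where the adjusted p was under 0.05. Filled points cluster on the left above 0, and on the right the single filled point is Itgb1 in cardiomyocyte-like nuclei.

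Dmd stood at 6017, 5672 and 3307 CPM in the cardiomyocyte-like nuclei of control P6 libraries 1 to 3, at 14411, 7471 and 11673 CPM in those of control P10 and at 6737, 18525 and 9686 CPM in those of KO P10. All 3 control P10 libraries lay above all 3 control P6 libraries, and the knockouts spread from below the lowest to above the highest control P10 library. How often all genes tested separate between groups in this way is not given here, for this or the later members. The log2 fold change with age was 1.16 ± 0.42 (adjusted p = 0.0663), which missed the threshold. It passed in DESeq2 (adjusted p = 0.0110), with no filter on low counts (0.00201) and without control P10 library 2 (0.0360), among 6 of 20 alternatives. It did not pass in the other 14, with adjusted p up to 0.245, the value without control P6 library 3. The difference between knockout and control was 0.06 ± 0.42 (adjusted p = 0.949), and it turned to -0.45 without KO P10 library 2, which held 17378 CPM of Dmd in cluster 6. Between the Xist-rich P10 libraries Dmd was lower in the knockout (14411 against 6737 CPM), whereas in the Y-rich libraries both knockout values (18525 and 9686 CPM) were above the lower control value. Dmd is X-linked, and with a term for Xist-rich libraries the genotype difference was 0.02 ± 0.42.

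In the other classes Dmd rose with age past the threshold in 3 of 3. Its log2 fold change was 2.90 ± 0.40 (adjusted p = 9.93e-06) in endothelial-like, 2.13 ± 0.35 (adjusted p = 0.000991) in endocardial-like and 1.79 ± 0.32 (adjusted p = 0.00114) in fibroblast-like nuclei. Endothelial-like nuclei held 751, 537 and 405 CPM in control P6 and 6406, 2580.3 and 3776 CPM in control P10, and fibroblast-like nuclei 569.9, 529 and 383 CPM and then 2067, 1207 and 1834 CPM. No control P10 library fell into the control P6 range in any of the 4 classes. These 3 calls held under every alternative that gave a test, leaving out each library in turn among them. In the knockout, Dmd was 1896, 3279 and 2245 CPM in endothelial-like and 1285, 2155 and 1178 CPM in fibroblast-like nuclei, with log2 fold changes of -0.77 ± 0.37 (adjusted p = 0.338) and -0.15 ± 0.31 (adjusted p = 0.889) against control P10.

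Cardiomyocyte RNA in the other classes moved with the same groups. The 12 cardiomyocyte markers summed to 0.738% to 0.864% in control P6, 1.55% to 2.35% in control P10 and 2.38% to 3.41% in KO P10 of fibroblast-like UMIs. In endothelial-like nuclei they summed to 1.18% to 1.94% in control P6, 3.24% to 4.81% in control P10 and 3.23% to 4.96% in KO P10, and in endocardial-like nuclei to 0.766% to 0.832% in control P6, 1.51% to 2.40% in control P10 and 2.40% to 2.76% in KO P10. All 12 were detected in each class, and 11, 9 and 11 of them were higher in every control P10 than in every control P6 library. Dmd is given relative to 1 of these markers. Per UMI of Ttn, the giant sarcomere protein's gene, cardiomyocyte-like nuclei held 0.451 to 0.636 UMIs of Dmd in control P6, 0.509 to 0.580 in control P10 and 0.528 to 0.712 in KO P10. Fibroblast-like nuclei held 0.498 to 0.655, then 0.237 to 0.322 and 0.179 to 0.270, and endothelial-like nuclei 0.144 to 0.386, 0.295 to 0.378 and 0.150 to 0.273, with overlap. Endocardial-like nuclei held 0.271 to 0.822, 0.283 to 0.410 and 0.203 to 0.432, also with overlap. The part of cardiomyocyte RNA in the age differences of Dmd, Dtna, Sgcd and Lama2 outside cardiomyocyte-like nuclei was not tested. Lama2 in fibroblast-like nuclei was at 0.344 to 0.558 UMIs per Ttn UMI in control P10, against 0.0740 to 0.0866 in cardiomyocyte-like nuclei of the same libraries.

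**Figure D3:**
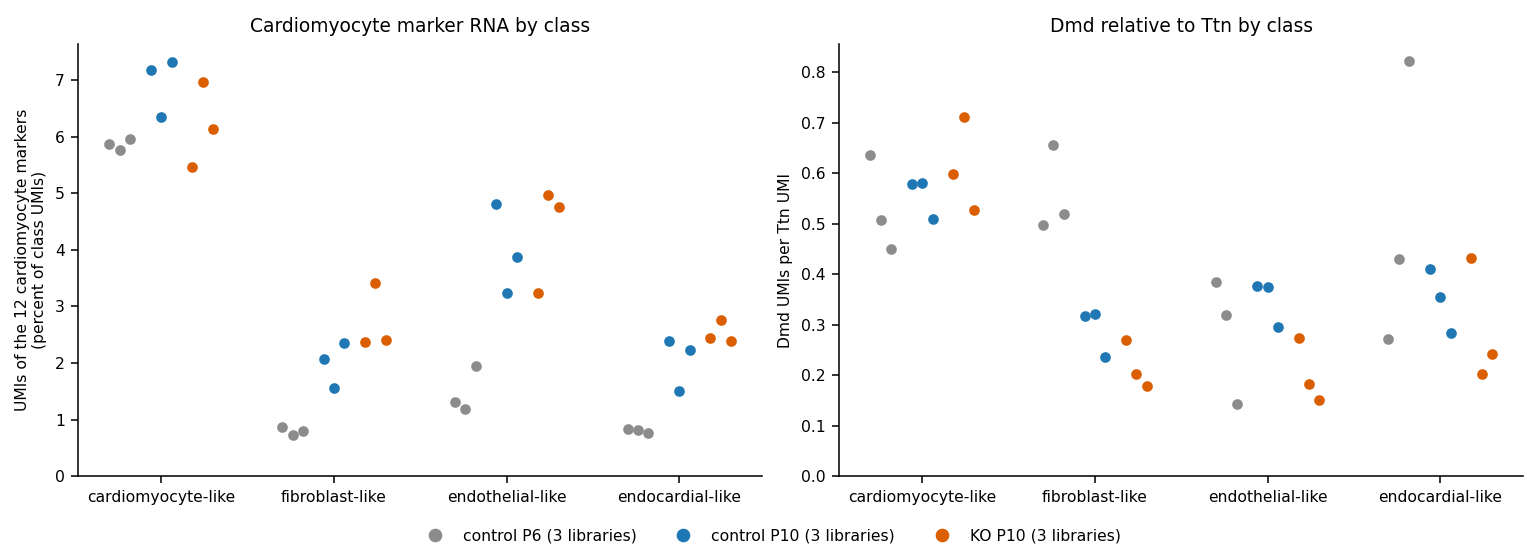
UMIs of the 12 cardiomyocyte markers as a percent of the class's UMIs (left) and UMIs of Dmd per UMI of Ttn (right), with 1 point per library and colours for the 3 groups. Outside cardiomyocyte-like nuclei the marker share is higher in every control P10 than in every control P6 library, and fibroblast-like nuclei hold fewer Dmd UMIs per Ttn UMI at P10 than at P6.

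Utrn, the relative of dystrophin, was spread more evenly over the classes than Dmd. At control P10 it was 929, 529 and 870.1 CPM in endothelial-like, 728, 477 and 784 in endocardial-like, 386, 322 and 483 in fibroblast-like and 519, 301 and 385 in cardiomyocyte-like nuclei. Neighbouring ranges overlapped throughout, but within a library endothelial-like nuclei exceeded fibroblast-like nuclei in 9 of 9 libraries (1.06 to 2.39 times). Utrn rose with age in endothelial-like nuclei, by a log2 fold change of 1.02 ± 0.35 (adjusted p = 0.0316), and in fibroblast-like nuclei, by 0.94 ± 0.28 (adjusted p = 0.0255). The endothelial call was lost in DESeq2 (0.0519) and when control P6 library 2 or 3 was left out, or control P10 library 1 or 3 (adjusted p up to 0.187). The fibroblast call was lost when control P6 library 2 or 3 was left out, or control P10 library 3 (up to 0.157) and with a minimum of 700 UMIs (0.0517). Cardiomyocyte-like nuclei went from 257, 301 and 201 CPM in control P6 to 519, 301 and 385 CPM in control P10, a log2 fold change of 0.66 ± 0.25 (adjusted p = 0.0801) that passed in 2 of 20 alternatives. The knockouts were at 299, 339 and 273 CPM there (-0.40 ± 0.25, adjusted p = 0.336) and 2 of the 3 were below every control P10 library. In endocardial-like nuclei all 3 knockout libraries (329.5, 464 and 421 CPM) lay below the 3 control P10 libraries, with a log2 fold change of -0.69 ± 0.32 (adjusted p = 0.418).

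The balance of the pair in cardiomyocyte-like nuclei is given as UMIs of Utrn per 100 UMIs of Dmd. It was 4.28, 5.31 and 6.07 in control P6, 3.60, 4.03 and 3.29 in control P10 and 4.45, 1.83 and 2.82 in KO P10. All 3 control P10 values were below all 3 control P6 values, and the knockout values ran from below to above those of control P10.

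Dtna, the gene of α-dystrobrevin, rose with age in cardiomyocyte-like nuclei, from 219, 218 and 191 CPM to 449.7, 357 and 378 CPM. The groups did not overlap, and the log2 fold change was 0.91 ± 0.27 (adjusted p = 0.0276). The call was lost when control P6 library 2 or 3 was left out, or control P10 library 1 or 3 (adjusted p up to 0.122), and when nuclei were classed by their own marker UMIs (0.174). Endothelial-like nuclei went from 40.3, 26.2 and 33.4 CPM to 253, 150.0 and 154 CPM, a rise of 2.31 ± 0.37 (adjusted p = 4.76e-05) on the log2 scale that held without each library in turn. In fibroblast-like nuclei the rise was 0.78 ± 0.26 (adjusted p = 0.0468), and it passed in 5 of 17 alternatives, DESeq2 not among them (0.117). The knockout differed most from control P10 in fibroblast-like nuclei, where 119.5, 129 and 141 CPM faced 70.7, 74.2 and 70.7 CPM with no overlap. That log2 fold change was -0.86 ± 0.25 (adjusted p = 0.0644). It passed when the shared barcodes were kept (0.0161) and when the listed genes were left out of the clustering (0.0376), but in none of the other 16 alternatives. DESeq2 gave an adjusted p of 0.154, and with a minimum of 700 UMIs the difference shrank to -0.20 (adjusted p = 0.814). Cardiomyocyte-like nuclei of the knockouts held 234, 508 and 342 CPM, spanning the controls (-0.13 ± 0.26, adjusted p = 0.805).

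Sgcd, which encodes δ-sarcoglycan, rose with age in all 4 classes. In cardiomyocyte-like nuclei it went from 723, 690.2 and 485 CPM to 1598, 1042 and 1439 CPM with no overlap, and in endothelial-like nuclei from 92.0, 61.2 and 217 CPM to 662, 435 and 577 CPM. The log2 fold changes were 1.10 ± 0.27 (adjusted p = 0.0118) in cardiomyocyte-like, 1.35 ± 0.30 (adjusted p = 0.00511) in fibroblast-like, 2.16 ± 0.35 (adjusted p = 6.36e-05) in endothelial-like and 1.34 ± 0.35 (adjusted p = 0.0189) in endocardial-like nuclei. The endothelial call held without each library in turn. The cardiomyocyte call was lost when nuclei were classed by their own marker UMIs (0.0530) and without control P6 library 3 (0.0803) or control P10 library 3 (0.0527), the fibroblast call without control P6 library 2 (0.0554), and the endocardial call when control P6 library 2 or 3 was left out, or control P10 library 3 (up to 0.128). The knockouts held 945, 1236 and 1182 CPM in cardiomyocyte-like nuclei, overlapping control P10 (-0.28 ± 0.27, adjusted p = 0.547). In endothelial-like nuclei the knockouts held 383, 296 and 309 CPM, below all 3 control P10 libraries, but the difference of -0.74 ± 0.34 (adjusted p = 0.318) did not pass.

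Sgca, the gene of α-sarcoglycan and the shortest member, did not follow its partner. Cardiomyocyte-like nuclei held 96.0, 66.7 and 58.8 CPM in control P6, 49.0, 57.6 and 67.4 in control P10 and 29.9, 36.3 and 46.9 in KO P10, from 241, 252 and 145 UMIs per group. The 2 control groups overlapped (-0.33 ± 0.26, adjusted p = 0.395), and all 3 knockout libraries were below all 3 control P10 libraries (-0.65 ± 0.26, adjusted p = 0.124), a difference that passed under none of the 21 alternatives and was -0.13 when nuclei were classed by their own marker UMIs. Per 100 UMIs of Sgcd there were 13.3, 9.67 and 12.1 UMIs of Sgca in control P6, 3.07, 5.52 and 4.69 in control P10 and 3.16, 2.94 and 3.97 in KO P10. This ratio was lower in every control P10 than in every control P6 library. The genes of the pair differ in span (13.5 kb for Sgca and 1093 kb for Sgcd). With age, genes of 10 to 50 kb had a median of -0.11 and quartiles of -0.48 and 0.24 in cardiomyocyte-like nuclei, so Sgca lay within the quartiles. The part of length in this ratio was not tested. Outside cardiomyocyte-like nuclei Sgca was near the limit of detection, with 17 UMIs in the fibroblast-like, 26 in the endothelial-like and 7 in the endocardial-like nuclei of the 3 control P10 libraries.

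Lama2, the gene of laminin α2, was highest in fibroblast-like nuclei, at 2316, 1399 and 991 CPM in control P6, 2638, 2095 and 2671 CPM in control P10 and 1595, 3103 and 2428 CPM in KO P10. Neither comparison passed there, with 0.66 ± 0.34 (adjusted p = 0.201) for age and -0.06 ± 0.34 (adjusted p = 0.967) for genotype. Without control P6 library 1 the age difference was 1.07 and passed (adjusted p = 0.0371). Cardiomyocyte-like nuclei held less, and in them Lama2 rose with age. They went from 912, 648 and 498 CPM to 2158, 1074 and 1699 CPM, with no overlap and a log2 fold change of 1.26 ± 0.31 (adjusted p = 0.0111) that was lost without control P6 library 2 (0.0575) or library 3 (0.0759). The rise was 2.46 ± 0.37 (adjusted p = 2.44e-05) in endothelial-like nuclei, under every alternative that gave a test, and 1.77 ± 0.39 (adjusted p = 0.00728) in endocardial-like nuclei, lost without control P6 library 3 (0.0528).

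In the knockout, Lama2 in cardiomyocyte-like nuclei was 783, 1004 and 901 CPM, so all 3 libraries lay below the lowest control P10 library. The log2 fold change was -0.87 ± 0.30 (adjusted p = 0.0709) and missed the threshold. It passed in DESeq2 (-0.90, adjusted p = 0.0284), with candidate doublets kept (0.0488) and without control P10 library 2 (0.0269), and in 4 of 21 alternatives in all, over which it ran from -1.11 to -0.63. Most cardiomyocyte-like nuclei of control P6 were in cluster 4 (62.4%), those of control P10 in cluster 3 (49.8%), and those of KO P10 in clusters 3 (36.1%) and 6 (25.9%), so levels were read within clusters 3, 4 and 5, which hold nuclei of all 9 libraries. Knockout libraries lay below control P10 libraries in each of them, with 790.5 to 1132 against 1151 to 1791 CPM in cluster 3, 587 to 701 against 994 to 1474 in cluster 4 and 667 to 924 against 1070.2 to 1852 in cluster 5. Dmd, Dtna, Sgcd and Lama2 were each higher in every control P10 than in every control P6 library within all 3 clusters. Utrn, Sgca, Itga7 and Itgb1 were not so in all 3. The share of all genes with such a separation within clusters was not computed.

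Itgb1 encodes the β1 subunit shared by the laminin, collagen and fibronectin receptors. It was the 1 member of 8 past the threshold with genotype in cardiomyocyte-like nuclei, where 11.8% of all genes passed. In cardiomyocyte-like nuclei it stood at 160.4, 189 and 187 CPM in control P6, 335, 212 and 288 in control P10 and 480.0, 535 and 484 in KO P10. Every knockout library was above every control, and the log2 fold change against control P10 was 0.85 ± 0.23 (adjusted p = 0.0245). DESeq2 gave 0.83 (adjusted p = 0.00732). The fold change stayed between 0.68 and 1.00 over the 21 alternatives, of which 16 passed. The call was lost without control P10 library 2 (0.0860) or 3 (0.111), without KO P10 library 2 (0.0584) or 3 (0.0710), and when nuclei were classed by their own marker UMIs (0.0657). Within clusters 3, 4 and 5 the knockouts (453 to 544, 507 to 562 and 409 to 652 CPM) were above control P10 (205 to 290.3, 234 to 298 and 212 to 261 CPM) in each. Among Xist-rich P10 libraries the values were 335 CPM in control and 480.0 CPM in knockout, and among Y-rich libraries 212 and 288 against 535 and 484 CPM.

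**Figure D4:**
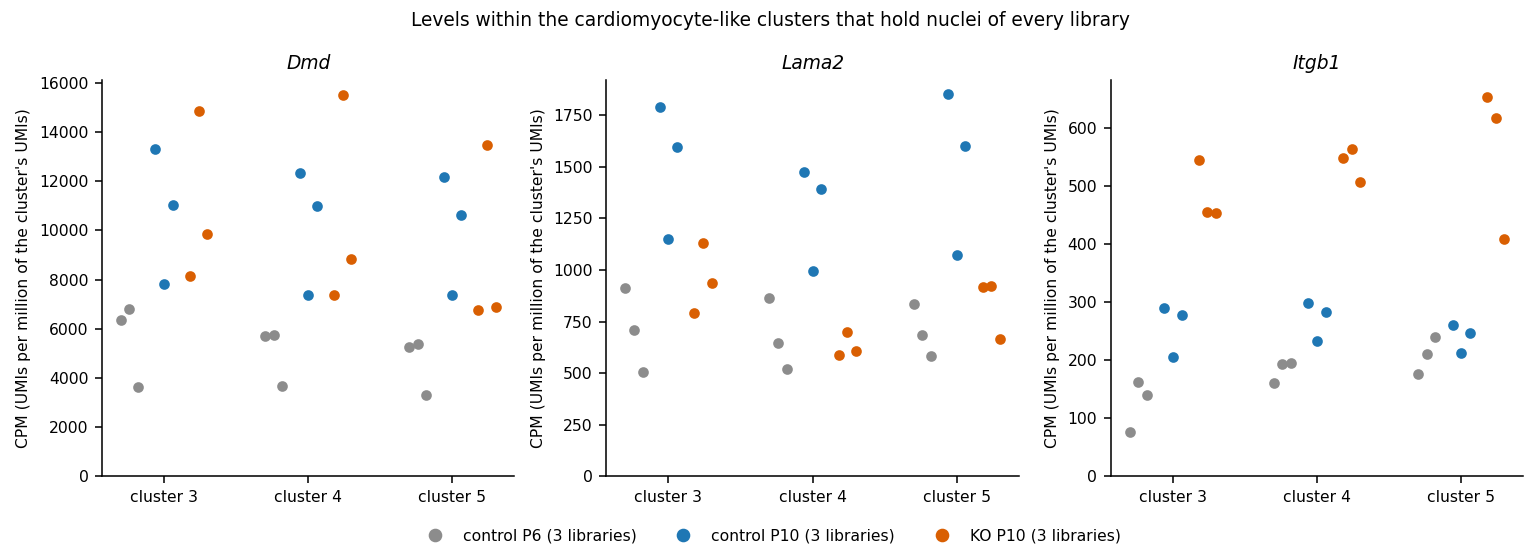
CPM of Dmd, Lama2 and Itgb1 within the 3 cardiomyocyte-like clusters that hold nuclei of every library, with 1 point per library and colours for the 3 groups. In each cluster the KO P10 points lie above the control P10 points for Itgb1 and below them for Lama2, and for Dmd they overlap them.

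The knockout libraries were also above every control P10 library in the other 3 classes, where Itgb1 did not pass. It was 497, 533 and 575 CPM against 695, 890.3 and 702 CPM in fibroblast-like nuclei (0.51 ± 0.25, adjusted p = 0.331), and 507, 549 and 624 against 895, 1146 and 897 CPM in endothelial-like nuclei (0.79 ± 0.30, adjusted p = 0.179). In endocardial-like nuclei it was 758, 701 and 632 against 846, 905 and 877 CPM (0.33 ± 0.28, adjusted p = 0.760). All classes come from the same libraries, and how often all genes tested separate in this way is not given here. With age, Itgb1 was the member that went against the others outside cardiomyocyte-like nuclei. Its log2 fold change from control P6 to control P10 was 0.63 ± 0.23 (adjusted p = 0.0708) in cardiomyocyte-like, -0.24 ± 0.25 (adjusted p = 0.556) in fibroblast-like, -0.35 ± 0.29 (adjusted p = 0.498) in endocardial-like and -0.69 ± 0.29 (adjusted p = 0.0840) in endothelial-like nuclei. Endothelial-like nuclei held 828, 909 and 1003 CPM in control P6, so all 3 control P10 libraries were lower, and DESeq2 called that fall (-0.75, adjusted p = 0.0288). Genes in the span bin of Itgb1, 10 to 50 kb, also had negative age medians. These were -0.19 in fibroblast-like, -0.28 in endocardial-like and -0.22 in endothelial-like nuclei. Itga7, in the same bin, was at 0.38 in fibroblast-like and 1.39 in endothelial-like nuclei. The part of length in the Itgb1 age difference was not tested.

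Signs of RNA from outside nuclei also differed between the groups. The Malat1-poor droplets that stayed unnamed held Itgb1 at 1158 CPM in cluster 2, 665 CPM in cluster 10 and 366 CPM in cluster 0. Dmd was at 731, 1739 and 522 CPM in these clusters. Ribosomal protein genes, whose RNA is mostly cytoplasmic, took 0.168 to 0.416% of cardiomyocyte-like UMIs in control P10 and 0.554 to 0.944% in KO P10, with 0.551 to 0.833% in control P6. Fibroblast markers took 0.0800% to 0.0946% in control P6, 0.177% to 0.210% in control P10 and 0.136% to 0.471% in KO P10 of cardiomyocyte-like UMIs, all 10 detected, and erythroid markers 0.144% to 0.164% in control P6, 0.119% to 0.226% in control P10 and 0.266% to 0.997% in KO P10, all 7 detected. The part of this RNA in the Itgb1 difference was not tested.

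Itga7, the α subunit that pairs with β1 in muscle, was scarce. Cardiomyocyte-like nuclei held 33.8, 37.1 and 32.7 CPM in control P6, 35.2, 69.4 and 64.4 in control P10 and 58.5, 84.4 and 74.7 in KO P10, from 116, 257 and 284 UMIs. Control P10 library 1 sat with the control P6 libraries, and neither difference passed (log2 fold change 0.73 ± 0.27, adjusted p = 0.0746 with age and 0.33 ± 0.26, adjusted p = 0.446 with genotype). Without that library the age difference passed (adjusted p = 0.0220). In endothelial-like nuclei Itga7 rose with age by 1.39 ± 0.41 (adjusted p = 0.0143) on the log2 scale, from 22 and 63 UMIs, a call lost in DESeq2 (0.0714) and when control P6 library 2 or 3 was left out, or control P10 library 2 or 3 (up to 0.0904). In fibroblast-like nuclei all 3 knockout libraries (46.0, 40.5 and 49.2 CPM) were above control P10 (34.7, 31.8 and 23.4 CPM), with 0.63 ± 0.33 (adjusted p = 0.374). With the shared barcodes kept that difference was 1.23 and passed (0.0472). Per 100 UMIs of Itgb1, cardiomyocyte-like nuclei held 21.1, 19.6 and 17.5 UMIs of Itga7 in control P6, 10.5, 32.8 and 22.4 in control P10 and 12.2, 15.8 and 15.4 in KO P10. The control P10 libraries spread too widely for any order of the groups.

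The highest level of Itga7 was in a class too small to test. The 395 pericyte-like nuclei held 232 CPM (74 UMIs, interval 182 to 291) over all libraries, where the interval is an exact 95% Poisson interval that covers counting error only. By group they held 319 CPM (40 UMIs, interval 228 to 434) in control P6, 196 CPM (28 UMIs, interval 130.4 to 284) in control P10 and 117 CPM (6 UMIs, interval 43.1 to 256) in KO P10, intervals that overlap between neighbours. Pericytes and smooth muscle cells wrap small vessels and share the vascular basement membrane. Lama2 was at 1235 CPM (394 UMIs, interval 1116 to 1363) and Itgb1 at 855 CPM (273 UMIs, interval 757 to 963) in the same nuclei. The 131 epicardial-like nuclei held 1907 CPM (238 UMIs, interval 1673 to 2166) of Dmd, and the 149 macrophage-like nuclei 1089 CPM (118 UMIs, interval 902 to 1304), beside 9072 CPM over all cardiomyocyte-like nuclei.

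Changes over all genes depended on gene length, so the members were set beside genes of like span. In cardiomyocyte-like nuclei the median log2 fold change with age ran from -0.61 for genes under 10 kb to 0.53 at 200 to 400 kb and 0.14 at 400 kb and over, with an upper quartile of 0.95 in the last bin. Dmd (1.16), Sgcd (1.10) and Lama2 (1.26) were above that upper quartile, and Utrn (0.66) was below it. In endothelial-like nuclei the bin of 400 kb and over had a median of 1.07, in fibroblast-like nuclei 0.75 and in endocardial-like nuclei 0.98. In the knockout the slope went the other way. The median in cardiomyocyte-like nuclei went from 0.37 under 10 kb to -0.76 at 400 kb and over, close to the -0.87 of Lama2. Dmd (0.06), Sgcd (-0.28) and Utrn (-0.40) were above that median. Itgb1 (0.85) was above the upper quartile of its bin of 10 to 50 kb (0.44), and Sgca (-0.65) was below its lower quartile (-0.26). The part of length in the members' differences was not tested.

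**Figure D5:**
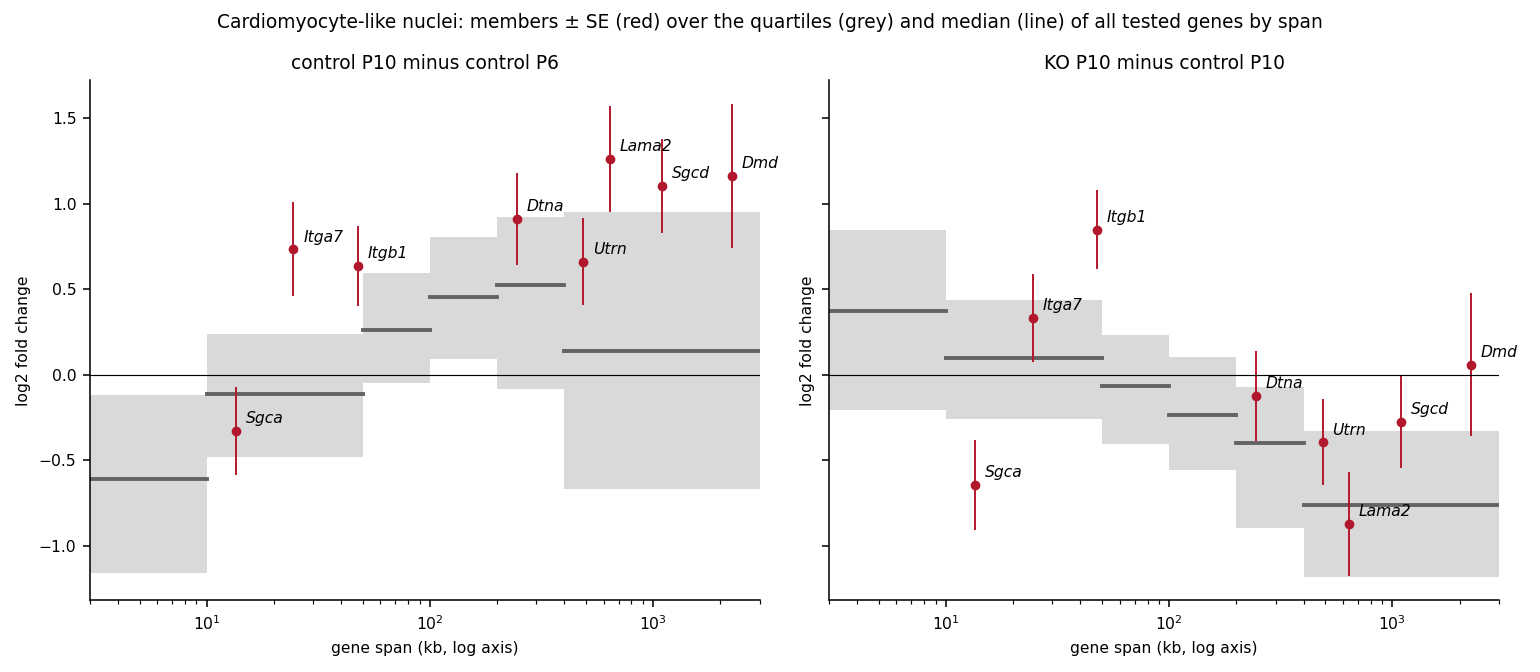
Log2 fold change in cardiomyocyte-like nuclei against gene span in kb (log axis), for control P10 minus control P6 (left) and KO P10 minus control P10 (right), with the 8 genes in red with their standard errors over the quartiles (grey) and medians (lines) of all tested genes by span. With age Dmd, Sgcd and Lama2 lie above the grey band of their bin and Utrn within it, and in the knockout Lama2 lies near the line of its bin while Itgb1 lies above its band and Sgca below it.

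Whether an effect differed between fibroblast-like and cardiomyocyte-like nuclei was tested directly, as a class by group interaction with the library as a block. Of 11821 genes, 2.73% passed for age and 1.54% for genotype, and no member was among them. As fibroblast-like minus cardiomyocyte-like log2 fold change, the difference with age was 0.77 ± 0.24 (adjusted p = 0.0640) for Dmd and -0.67 ± 0.22 (adjusted p = 0.0836) for Itgb1. For Utrn, Dtna, Sgcd, Sgca, Lama2 and Itga7 it lay between -0.36 (Lama2) and 0.49 (Utrn), with adjusted p of 0.331 or more. With genotype it was 1.57 ± 0.53 (adjusted p = 0.134) for Sgca, which has few counts in fibroblast-like nuclei, 0.73 ± 0.21 (adjusted p = 0.0693) for Lama2 and -0.64 ± 0.26 (adjusted p = 0.262) for Dtna. For Itgb1 it was -0.38 ± 0.21 (adjusted p = 0.474), and Dmd, Utrn, Sgcd and Itga7 lay between -0.14 and 0.43.

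Summed over all barcodes of a library, without any choice of classes, 5 of 8 members rose with age (Dmd, Dtna, Sgcd, Lama2 and Itga7), where 23.9% of the 15841 genes tested passed. Itgb1 was the 1 member called in the knockout, with 0.89 ± 0.24 (adjusted p = 0.0190), where 16.3% of genes passed. Itgb1 stood at 338, 340.1 and 369 CPM in control P6, 656, 379 and 466 in control P10 and 1013, 1007 and 767 in KO P10. In such sums fewer nuclei of a type and less RNA per nucleus cannot be told apart. The age calls of the sums were 1.24 ± 0.39 (adjusted p = 0.0324) for Dmd, 0.96 ± 0.25 (adjusted p = 0.0121) for Dtna, 1.18 ± 0.23 (adjusted p = 0.00222) for Sgcd, 1.22 ± 0.27 (adjusted p = 0.00447) for Lama2 and 1.05 ± 0.20 (adjusted p = 0.00194) for Itga7. The 3 members that did not pass with age were Utrn at 0.69 ± 0.25 (adjusted p = 0.0560), Sgca at 0.18 ± 0.18 (adjusted p = 0.478) and Itgb1 at 0.52 ± 0.24 (adjusted p = 0.122). With genotype, Itga7 stood at 0.52 ± 0.19 (adjusted p = 0.0773) and Sgca at 0.10 ± 0.18 (adjusted p = 0.732), while Lama2, Utrn, Sgcd, Dtna and Dmd ran from -0.54 to -0.03. The Dmd call was lost when control P6 library 2 or 3 was left out, or control P10 library 1 or 3 (adjusted p up to 0.131), and the Dtna call without control P6 library 3 (0.0552). The Itgb1 call was lost without control P10 library 2 (0.0663) or 3 (0.117) or KO P10 library 1 (0.0524).

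The wider pathway was read from a list of 78 names, of which 71 were in the files, 63 of them not members. In cardiomyocyte-like nuclei 9 of the 54 tested rose with age and 2 fell, where 17.2% of all genes passed. Among those that rose were Lama3 (1.56 ± 0.42), a laminin chain; Nid1 (1.54 ± 0.28), which links laminin to collagen IV; Sntb2 (1.46 ± 0.29), a syntrophin; and Lamc1 (1.26 ± 0.24), the γ1 chain of laminin. Ilk, the integrin-linked kinase gene, and Itgb1bp2, which encodes the muscle protein melusin that binds β1 integrin, dropped by 1.77 and 0.78 on the log2 scale. Of the 5 sarcoglycan and sarcospan genes tested beside the members, none passed with age in cardiomyocyte-like nuclei, at a median of 0.32.

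In the knockout's cardiomyocyte-like nuclei 5 of those 54 genes rose and 3 fell, where 11.8% of all genes passed. The rises were Ilk (1.86 ± 0.33, adjusted p = 0.00227), Lama3 (1.67 ± 0.35, 0.00601), Agrn (1.59 ± 0.23, 0.000414), Murc (1.05 ± 0.26, 0.0159) and Itga1 (1.03 ± 0.24, 0.0116). Agrn encodes agrin, another laminin-binding matrix protein that dystroglycan holds, Itga1 the α subunit of a collagen and laminin receptor that pairs with β1, and Murc a caveolar protein. Lama3 was among the 10 genes with the highest fold in cluster 7, which held 529 nuclei, 368 of them from KO P10 library 1. The genes that fell were Sgcz (-1.44 ± 0.38, 0.0219), the gene of ζ-sarcoglycan, Parvb (-0.96 ± 0.28, 0.0338), which binds integrin-linked kinase, and Itgb1bp2 (-0.88 ± 0.26, 0.0382). The median over the 54 was -0.02, beside 0.02 over all genes. Ilk is in the span bin under 10 kb, whose genotype median was 0.37 and upper quartile 0.85 in these nuclei. The part of length, or of RNA from outside nuclei, in the knockout differences of this list was not tested.

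In fibroblast-like nuclei 9 of the 49 other genes tested rose with age, among them Lims2 (1.30 ± 0.38), Dysf (1.21 ± 0.38) and Sntb1 (0.97 ± 0.31), and Ilk fell (-1.68 ± 0.27), where 14.7% of all genes passed. Dysf is the gene of the membrane repair protein dysferlin. Cardiomyocyte markers were higher in these nuclei in control P10, as given above. The part of cardiomyocyte RNA in the Dysf difference was not tested. In the knockout 2 of 49 rose, Murc (1.71 ± 0.38) and Sgcb (0.99 ± 0.25), and 0 fell, beside 3.63% of all genes called. In endothelial-like nuclei 9 of 44 rose with age, among them Tln2 (1.5 ± 0.33), Sspn (1.39 ± 0.32) and Sntb1 (1.34 ± 0.34), while Ilk (-1.90 ± 0.32) and Nid2 (-1.69 ± 0.32) fell, where 23.9% of all genes passed. Endocardial-like nuclei had 1 call among 36, Ilk (-1.80 ± 0.51), beside 8.63% of all genes called. No other gene of the list passed with genotype in endothelial-like or endocardial-like nuclei in edgeR. Ilk spans 6.33 kb, in the bin whose median went down with age in every class. Its fall was below the lower quartile of that bin in each class. That quartile was -1.16 in cardiomyocyte-like, -1.20 in fibroblast-like, -1.41 in endothelial-like and -1.34 in endocardial-like nuclei. The part of length in the Ilk difference was not tested.

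The genes whose levels ran most like each member's were found by Pearson correlation of log2 CPM over 36 sums (4 classes in 9 libraries) among 10217 genes, as a description. The 36 points share libraries and depth. The closest to Dmd were the heart genes Mlip (0.98), Cacna1c (0.98), the L-type calcium channel, and Ryr2 (0.97), the calcium release channel and a cardiomyocyte marker used here. Sgcd ran with Cacna1c (0.94), Adk (0.94) and Ank (0.93), and Dtna with Sox6 (0.93), Dmd itself (0.93) and Tnik (0.93). Lama2 ran with Ssbp2 (0.93), Tbx20 (0.92) and Zfpm2 (0.91). For Utrn they were Stox2 (0.87), Rasal2 (0.85) and Cep85l (0.84), for Sgca Ehbp1l1 (0.86) and Mybpc3 (0.85), and for Itga7 Tigar (0.85), Parm1 (0.85) and Syde2 (0.84). Itgb1 stood apart, with Hsp90ab1 (0.82), Eif3c (0.81) and Tmem50a (0.80), and its correlation with each of the other 7 members was negative (-0.54 to -0.16).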

How the data were processed

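RNA of single nuclei from mouse ventricles was measured in 9 libraries, 3 per group, grouped by the stage and genotype in the labels. The authors deposited 1 table of UMI counts per library, with genes in rows and nucleus barcodes in columns, and the counts are raw whole numbers. The names of the deposited tables say that exonic and intronic reads were counted. STAR 2.5.2a and the build mm10 are named in the submitters' processing notes, and the annotation, the use of strand and the choice of barcodes are not given in the sources used here.

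Mitochondrially encoded genes stayed out of all sums. Barcodes with at least 500 UMIs were kept, the 5% with the highest Scrublet doublet score in each library were left out (1328 barcodes), and so were 464 barcodes of KO P10 library 2 that are also in library 1. Counts scaled to 1000 per nucleus and log-transformed were centred per library, reduced over 2000 variable genes to 30 principal components, and clustered by the Leiden method (15 neighbours, resolution 1). A cluster was named where at least 3 markers of 1 of 13 cell classes were raised 1.5-fold and reached 20 CPM, and it stayed unnamed where Malat1 was under 40% of the median over clusters, both limits set after the data were seen. Counts were then summed per class and library for classes with at least 50 nuclei in every library.

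The sums were fitted with edgeR's quasi-likelihood test (glmQLFit and glmQLFTest, TMM factors, filterByExpr) on all 3 groups together, with no covariate, and Benjamini-Hochberg adjustment over all genes tested, at a threshold of 0.05. Standard errors are the fold change over the square root of F. The procedure was tested on simulated data. DESeq2, no filter on low counts, each library left out, the replicate number as a block, a term for Xist-rich libraries and other choices of barcodes and classes were tried as alternatives. Same-numbered libraries deviated together with correlations of -0.13 to 0.32 over 6830 genes, so the numbers were not taken as pairs. The rule for named genes took all 8 members in every comparison, where the plot of fold changes shows those without a value in the text, and of the wider pathway list those past the threshold, at most 5 per direction by size. A few genes of that list, and 1 gene with a pattern like a member's, are not reported here. The genes, the lists and the tests were chosen with earlier results of these data known. Versions were edgeR 4.0.16, DESeq2 1.42.0, R 4.3.3, Python 3.11.15, scanpy 1.11.5, pandas 2.3.3 and numpy 2.4.6.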

Additional observations from a re-analysis of the deposited data

Results flagged for a closer look

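Itgb1 had age differences of opposite sign in 2 classes, and neither passed the threshold in edgeR. From control P6 to control P10 its log2 fold change was 0.63 (edgeR adjusted p = 0.0708) in cardiomyocyte-like nuclei and -0.69 (adjusted p = 0.0840) in endothelial-like nuclei. The first passed in 3 of 20 alternatives and the second in 1 of 16, with DESeq2 among them in both. Every control P10 library was above every control P6 library in the first class and below it in the second. The difference between the 2 classes was not tested. Genes of 10 to 50 kb, the span bin of Itgb1, had age medians of -0.11 in cardiomyocyte-like and -0.22 in endothelial-like nuclei.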

How the results depend on the processing

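Over the 8 genes and the counts of calls, 1108 values under an alternative kept their direction and their side of the threshold or stayed within 1.5 times, 57 lost the threshold, 36 gained it and 23 changed sign. In cardiomyocyte-like nuclei the age comparison called 5 of the 8 genes with DESeq2, 6 with no filter on low counts, 5 with the shared barcodes kept, 0 with the Malat1-poor clusters kept (1253 genes in all against 1941), and 0 to 6 with 1 library left out (0 without control P6 library 3, and 747 to 2323 genes in all). The genotype comparison there called 2 with DESeq2, with no filter or with candidate doublets kept, and 0 with nuclei classed by their own marker UMIs. With 1 library left out it called 0 to 1 (472 to 1376 genes in all against 1334). The count was 0 without control P10 library 3 and without KO P10 library 2 or 3. In fibroblast-like nuclei 2 of the genes were called with age at a minimum of 700 UMIs and 1 to 5 with 1 library left out (443 to 1900 genes in all against 1269). With genotype 1 was called when the listed genes were left out of the clustering and 2 with the shared barcodes kept, while all genes called numbered 744 with the shared barcodes kept, 149 at 700 UMIs and 77 to 379 with 1 library left out, against 312. In endothelial-like nuclei 130.0 genes were called with genotype, 227 with the term for Xist-rich libraries and 32 to 194 with 1 library left out, and with age 780.0 to 1706 against 1530.0. In endocardial-like nuclei 57 were called with genotype, 116 with no filter, 108 with the Xist term, 90 with the listed genes left out of the clustering, 86 with the shared barcodes kept and 16 to 112 with 1 library left out. With age 96 to 588 were called against 381, with 1 to 4 of the 8. Over all barcodes 3 to 7 of the 8 were called with age (2022 to 4569 genes against 3793), 2 with genotype under the Xist term, and 0 to 1 with genotype with 1 library left out (843 to 2826 genes against 2587).

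Genotype differences near 0 changed sign. In cardiomyocyte-like nuclei Dmd was -0.19 with the Malat1-poor clusters kept, -0.075 with the shared barcodes kept and -0.45 to 0.33 with 1 library left out, and Dtna -0.46 to 0.10. In fibroblast-like nuclei Dmd was 0.081 at 700 UMIs and -0.46 to 0.022 with 1 library left out, and Lama2 -0.29 to 0.16. In endothelial-like nuclei Itga7 was -0.40 to 0.049. In endocardial-like nuclei Dmd was 0.044 with no filter and -0.37 to 0.25 with 1 library left out, Sgcd -0.55 to 0.0082 and Lama2 -0.58 to 0.21. Over all barcodes Dmd was -0.58 to 0.26 and Dtna -0.51 to 0.061. The cause of these changes was not tested.

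With the replicate number as a block, 93 genes were called with genotype in endocardial-like and 236 in endothelial-like nuclei, Dmd in cardiomyocyte-like nuclei turned to -0.0071 with genotype, and Dtna in fibroblast-like nuclei lost its age call (adjusted p = 0.0684). The block changed no other call of the 8 genes. Classing by own marker UMIs in the 3 classes other than cardiomyocytes, and the minimum of 700 UMIs in endothelial-like and endocardial-like nuclei, were not run because too few nuclei were left in a library. Depth limits Sgca and Itga7 outside cardiomyocyte-like nuclei.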
